A study of Mus musculus with 4 samples.

Results

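The genes described here are the CDK inhibitors Cdkn1a, Cdkn1b, Cdkn1c, Cdkn2a, Cdkn2b and Cdkn2c, the D-type cyclins Ccnd1, Ccnd2 and Ccnd3, and Trp53. They were chosen by their symbols and are 10 of the 19465 genes measured. Sections of the primary tumour and of the lung were taken from each of 2 BALB/c mice, called mouse A and mouse B, 1 section per tissue and mouse (n = 2 per tissue), so the tissues are paired by animal. All sections come from mice that received 100000 4T1 cells in the mammary fat pad at 8 weeks of age and were sacrificed 28 days later, and no tissue of a mouse without tumour cells was analysed here. 4T1 is a mouse mammary carcinoma line, here the only one used, which metastasises to lung in this strain. Each section of 4 µm of fixed, paraffin-embedded tissue was profiled by 10x Visium, in which paired probes for a gene are bound by barcoded spots on a slide and counted by unique molecular identifiers (UMIs). One spot covers several cells, often of more than 1 type, and RNA is counted rather than protein or its activity.

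CDK inhibitors and D cyclins set how readily a cell leaves the G1 phase. A D cyclin binds CDK4 or CDK6 and starts the phosphorylation of the retinoblastoma protein, which then releases E2F factors. The INK4 inhibitors (here those encoded by Cdkn2a, Cdkn2b and Cdkn2c, with Cdkn2d outside the list) bind CDK4 and CDK6 themselves, whereas the CIP/KIP inhibitors (encoded by Cdkn1a, Cdkn1b and Cdkn1c) bind cyclin and CDK complexes more broadly. Trp53 encodes p53, which induces Cdkn1a, and Cdkn2a also encodes ARF, which stabilises p53 by binding Mdm2. Cdkn2a and Cdkn2b are often lost together in cancer.

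Spots with more than 200 genes were kept, 9339 of 9445 in all, and the 4 sections held 10890154 to 30240176 UMIs in them, with median depths of 1820 to 9174.5 UMIs per spot. The lung sections carried 11 of 11 measured alveolar markers above the level of genes not used by these tissues, and all sections, the lungs included, 6 of 6 measured carcinoma markers. This level was set by 1141 olfactory and vomeronasal receptor genes, whose mean was 0.209 CPM in the lung of mouse A and 0.159 CPM in that of mouse B, and 0.749 and 7.98 CPM in the primary tumours of the same mice. CPM is the UMI count of a gene divided by all UMIs of the section, scaled to 1000000. The primary tumour of mouse B therefore stands apart, with 95% of receptor genes at or below 19.3 CPM against 1.70 CPM in the primary tumour of mouse A. Its receptor signal was 29.5 CPM in the 25% of spots with the fewest UMIs and 2.46 CPM in the 25% with the most. Sections shared 1458 to 2094 spot barcodes pairwise, which are positions on the slide.

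The 3 INK4 genes of the list lie on the minus strand of chromosome 4 (mm10, GENCODE M21), with Cdkn2a at chr4:89274471-89294653, Cdkn2b at chr4:89306299-89311039, a gap of 11645 bp, and Cdkn2c apart at chr4:109660876-109667189. Their promoters are shown because Cdkn2a and Cdkn2b are neighbours with different levels in the lung, while Cdkn2c was high in the tumours. Each window runs from 250 bases before to 50 after a start in RefSeq (GRCm38.p6), 5′ to 3′ on the strand of the gene. Capitals mark GGGCGG, the core of the Sp1 motif, and the E2F motif searched as TTTCCCGC, TTTGGCGC, TTTCGCGC or TTTGCCGC, on both strands.
Cdkn2b, chr4:89310983-89311282: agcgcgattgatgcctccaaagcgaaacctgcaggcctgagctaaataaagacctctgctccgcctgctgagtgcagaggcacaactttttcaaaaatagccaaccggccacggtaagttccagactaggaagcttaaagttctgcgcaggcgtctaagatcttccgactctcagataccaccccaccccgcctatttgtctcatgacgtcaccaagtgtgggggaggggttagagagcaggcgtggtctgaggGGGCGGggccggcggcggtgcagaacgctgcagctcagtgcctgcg
Cdkn2a, first start, chr4:89294570-89294869: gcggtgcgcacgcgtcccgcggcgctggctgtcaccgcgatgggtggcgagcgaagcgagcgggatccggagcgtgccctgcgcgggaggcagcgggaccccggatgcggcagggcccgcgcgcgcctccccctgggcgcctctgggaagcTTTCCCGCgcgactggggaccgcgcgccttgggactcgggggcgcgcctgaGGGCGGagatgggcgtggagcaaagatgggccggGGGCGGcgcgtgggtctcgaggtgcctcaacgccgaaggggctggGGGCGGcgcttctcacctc
Cdkn2a, second start, chr4:89282143-89282442: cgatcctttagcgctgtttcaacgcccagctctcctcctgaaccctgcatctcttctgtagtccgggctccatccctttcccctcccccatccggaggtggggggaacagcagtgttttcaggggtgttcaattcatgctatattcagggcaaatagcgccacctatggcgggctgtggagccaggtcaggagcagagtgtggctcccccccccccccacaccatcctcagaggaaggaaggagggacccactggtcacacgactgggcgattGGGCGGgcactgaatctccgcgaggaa
Cdkn2c, first start, chr4:109666707-109667006: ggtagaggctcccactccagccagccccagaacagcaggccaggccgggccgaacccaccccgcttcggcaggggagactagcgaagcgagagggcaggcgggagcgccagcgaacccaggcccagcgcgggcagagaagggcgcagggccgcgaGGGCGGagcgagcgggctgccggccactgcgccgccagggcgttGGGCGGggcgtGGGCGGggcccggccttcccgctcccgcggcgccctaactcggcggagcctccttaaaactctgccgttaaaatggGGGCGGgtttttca
The Sp1 core stands once in the window of Cdkn2b, 3 times and once in the windows of Cdkn2a and 4 times in the first window of Cdkn2c, with 0 in the window of its second start, and 35.7% of the 32851 promoter windows hold it. The E2F letters stand once, at the first start of Cdkn2a, and 2.27% of all windows hold them. None of these windows, nor that of the second start of Cdkn2c, holds TATAAA, which 13.6% of all windows do. The GC content was 77.0% and 60.3% at the starts of Cdkn2a, 57.7% at Cdkn2b and 73.3% and 44.0% at the starts of Cdkn2c, against a median of 52.7% over all windows. These matches are letters only. 7 of the 10 genes had a promoter entry, and Cdkn1c, Ccnd1 and Ccnd2 are named only.

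Cdkn2b and Cdkn1c were near 0 in the primary tumours and present in the lungs, and Cdkn2a was near 0 in all 4 sections. Cdkn2b, the INK4 gene that TGF-beta signalling induces, stood at 42.1 CPM in the lung of mouse A and 25.1 CPM in that of mouse B, but at 1.11 CPM (15 UMIs, 95% exact Poisson interval 0.620 to 1.83 CPM) and 2.11 CPM (23 UMIs, 1.34 to 3.17 CPM) in the primary tumours of mice A and B. Cdkn1c, a CIP/KIP gene expressed from the maternal allele, stood at 32.1 CPM in the lung of mouse A and 35.9 CPM in that of mouse B, and at 0.517 CPM (7 UMIs, 0.208 to 1.07 CPM) and 2.48 CPM (27 UMIs, 1.63 to 3.61 CPM) in their primary tumours. For both genes the tissues did not overlap, and in the primary tumour of mouse B both values were below the mean of the receptor genes. The share of all genes without such overlap was not counted, here or for the genes below. With 2 mice no permutation of labels gives a two-sided p under 0.333, so separation alone says little. Intervals cover counting error only, and in sections of mixed tissue fewer cells of a type and less RNA per cell cannot be told apart.

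Cdkn2a gave 5 UMIs in the lung of mouse A, 29 in the lung of mouse B, and 15 and 28 in the primary tumours of the same mice. These are 0.450 CPM (0.146 to 1.05 CPM), 0.959 CPM (0.642 to 1.38 CPM), 1.11 CPM (0.620 to 1.83 CPM) and 2.57 CPM (1.71 to 3.72 CPM). Only the lung of mouse B lay above the 95th percentile of its receptor genes, which is 0.397 CPM. In the deepest 25% of spots of the primary tumour of mouse B, at 13270 UMIs per spot, Cdkn2a was 0.890 CPM, Cdkn2b 1.27 CPM and Cdkn1c 0.381 CPM, all below the receptor mean of 2.46 CPM there. In its shallowest 25% they were at 11.4, 7.10 and 7.10 CPM, beside a receptor mean of 29.5 CPM. A low level of these 3 genes in that tumour was not detectable above this background.

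The 27 other measured genes within 1000000 bp of Cdkn2a and Cdkn2b were looked at after the values of these genes were seen. Of these, 9 in the tumour of mouse A and 6 in that of mouse B lay above the 95th percentile of its receptor genes, and the 6 that did so in both were Mtap, Klhl9, Ifnz, Gm13272, Gm13283 and Gm13287. The last 4 were at 3.18 to 7.09 CPM in the tumour of mouse A and at 54.7 to 90.6 CPM in that of mouse B. Mtap, the enzyme of the methionine salvage pathway that lies 93389 bp from Cdkn2a on the other strand (chr4:89137122-89181081), stood at 633.5 and 586.2 CPM in the primary tumours of mice A and B and at 47.7 and 250.4 CPM in their lungs. Lung against primary tumour, its log2 fold change was -1.83 (SE 0.62, adjusted p = 0.122 by edgeR), so this difference did not pass the test. Klhl9, a gene of an adaptor for protein ubiquitination, was at 130.8 and 116.4 CPM in the tumours and at 120.3 and 117.8 CPM in the lungs. The copy number of this stretch was not measured here.

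Cdkn2c, the remaining INK4 gene of the list, ran the other way. It stood at 566.7 and 387.3 CPM in the primary tumours of mice A and B and at 72.6 and 208.5 CPM in their lungs. The lowest tumour was above the highest lung. After thinning of every spot to 1000 UMIs, 42.4% and 23.0% of tumour spots and 6.70% and 14.8% of lung spots held a UMI of Cdkn2c, where 886 and 56 tumour spots and 10 and 5 lung spots of mice A and B were too shallow to enter. Before thinning the shares were 63.7% and 46.2% in the tumours and 33.9% and 67.4% in the lungs.

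The other CIP/KIP genes had levels that overlapped between the tissues. Cdkn1a, which encodes p21, stood at 129.5 and 205.6 CPM in the lungs and at 136.9 and 156.8 CPM in the tumours of mice A and B, so the lungs lay on both sides of the tumours. Cdkn1b, which encodes p27, was at 129.0 and 85.8 CPM in the lungs and at 90.8 and 91.1 CPM in the tumours. Trp53 was at 44.3 and 68.6 CPM in the lungs and at 76.0 and 71.4 CPM in the tumours, above the 95th percentile of the receptor genes in each section. Both tumours were above both lungs for Trp53, by a margin smaller than the gap between the lungs.

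The D cyclins differed from each other in direction. Ccnd1 was at 1294 and 1140 CPM in the primary tumours of mice A and B and at 160.0 and 672.4 CPM in their lungs. Ccnd3, the D cyclin that blood cells use widely, was at 215.7 and 84.9 CPM in the lungs and at 37.0 and 27.6 CPM in the tumours. Ccnd2 was at 52.9 and 29.9 CPM in the lungs and at 27.0 and 12.9 CPM in the tumours. The tissues did not overlap for any D cyclin, where the share of all genes without overlap was again not counted. The lung of mouse B was nearer to the tumours than that of mouse A for all 3, and Ccnd2 in the primary tumour of mouse B lay under the 95th percentile of its receptor genes.

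**Figure D1:**
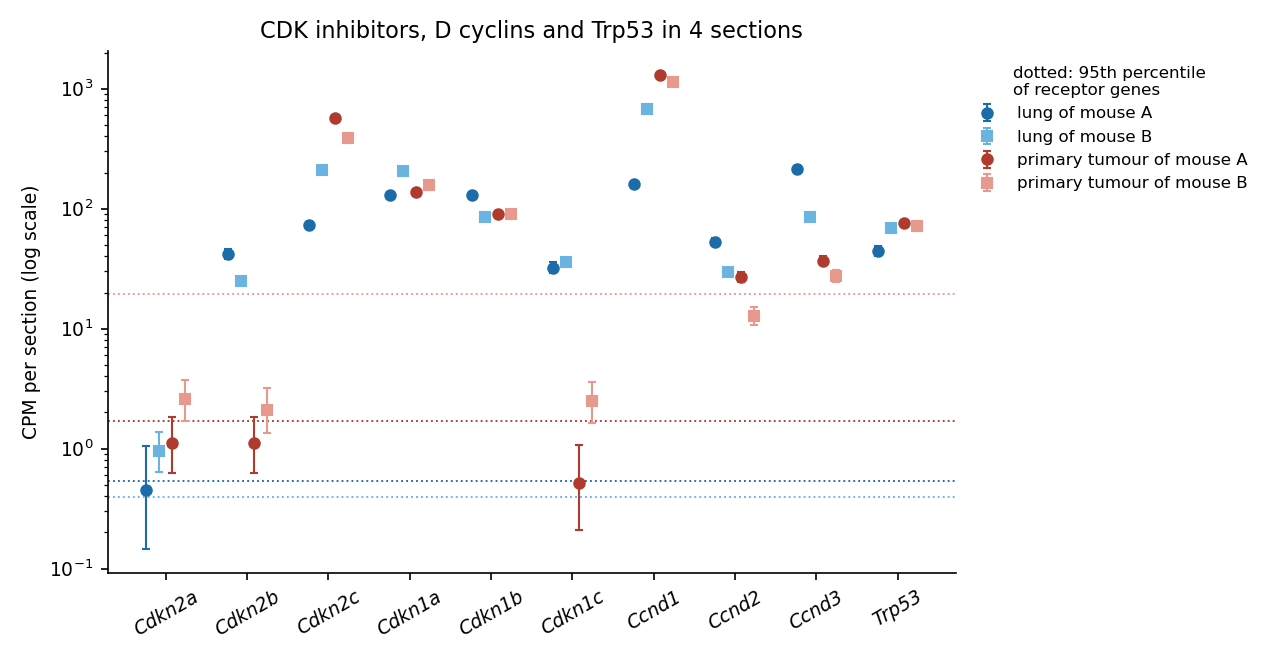
Level of each gene in CPM (log axis) in the 4 sections, with 95% exact Poisson intervals of the UMI count, which are smaller than the symbols for most genes. Dotted lines give the 95th percentile of 1141 receptor genes in the section of the same colour, and Cdkn2a, Cdkn2b and Cdkn1c in the tumours lie under the line of the primary tumour of mouse B.

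Which of these genes differ between lung and primary tumour was tested by edgeR on UMIs summed per section (n = 2 mice per tissue). Cdkn1c, Cdkn2b and Ccnd3 were higher in the lung. Cdkn1c had a log2 fold change of 4.84 (SE 0.68, adjusted p = 0.00615), Cdkn2b of 4.73 (SE 0.59, adjusted p = 0.00434) and Ccnd3 of 2.57 (SE 0.54, adjusted p = 0.0231). Thus 3 of the 10 genes passed, against 7.46% of the 15267 genes tested, where 963 were higher and 176 lower in the lung. With the mouse as a replicate block, 5 of the 10 passed against 11.9% of all genes, adding Cdkn2c (log2 fold change -1.63, adjusted p = 0.0181) and Ccnd2 (1.39, adjusted p = 0.0302). Without the block Cdkn2c was at -1.54 (SE 0.50, adjusted p = 0.107), Ccnd1 at -1.34 (SE 0.60, adjusted p = 0.216) and Ccnd2 at 1.37 (SE 0.52, adjusted p = 0.157). With upper-quartile scaling Cdkn2b passed (adjusted p = 0.0426), and Cdkn1c (adjusted p = 0.0544) and Ccnd3 (adjusted p = 0.0856) did not. Without the primary tumour of mouse B, which stands apart, the log2 fold changes were 6.18 for Cdkn1c, 5.11 for Cdkn2b and 2.24 for Ccnd3. With each section left out in turn Cdkn1c ran from 4.38 (without the primary tumour of mouse A) to 6.18 (without that of mouse B). Cdkn2b ran from 4.32 to 5.37 and Ccnd3 from 1.70 to 3.36. These 2 genes were lowest without the lung of mouse A and highest without that of mouse B. Ccnd1 was at -0.54 and Cdkn2c at -0.89 without the lung of mouse A, and at -2.30 and -2.11 without that of mouse B. Ccnd2 was at 0.81 without the primary tumour of mouse B and at 2.34 without that of mouse A. These are given as sizes only, since the spread then comes from the 2 sections of 1 tissue and the lone section of the other is assumed to vary like them. The values of Cdkn1a (0.46), Cdkn1b (0.57), Trp53 (-0.11) and Cdkn2a (-1.08) did not pass either. The folds of Cdkn1c and Cdkn2b are set against tumour levels at or near the receptor background and carry no more precision than the 7 to 27 UMIs behind those levels.

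Markers of alveolar cells, endothelium and neutrophils were higher in both lungs than in both tumours. So were those of airway, smooth muscle, cardiac muscle, fibroblasts and B cells, while those of macrophages and T cells had no common direction. The 11 measured alveolar markers summed to 13690 CPM in the lung of mouse A, 7740 CPM in that of mouse B, and to 28.9 and 74.3 CPM in their tumours. The 8 endothelial markers summed to 2769 and 1278 CPM in the lungs against 290.3 and 207.4 CPM, and the 6 neutrophil markers to 73750 and 29890 CPM against 2614 and 11190 CPM, with 5 of 6 neutrophil markers above the 95th percentile of receptor genes in the primary tumour of mouse B and 6 of 6 elsewhere. The 7 macrophage markers summed to 560.4 and 1134 CPM in the lungs against 2172 and 467.7 CPM, and the 7 T cell markers to 132.0 and 47.9 CPM against 107.9 and 64.5 CPM, where 0 of 7 T cell markers lay above that percentile in the primary tumour of mouse B. Airway markers summed to 2425 and 1076 CPM in the lungs against 15.2 and 26.6 CPM in the tumours. Smooth muscle markers were at 573.3 and 356.0 against 37.0 and 74.6 CPM, and cardiac ones at 290.7 and 457.5 against 31.55 and 47.9 CPM. Fibroblast markers were at 842.2 and 1825 against 806.1 and 391.1 CPM, and B cell markers at 379.1 and 61.9 against 27.8 and 41.7 CPM. The 6 carcinoma markers summed to 117.7 and 1245 CPM in the lungs and to 4707 and 5187 CPM in the tumours. The part of cell makeup in the differences of Cdkn1c, Cdkn2b and Ccnd3 was not tested.

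**Figure D2:**
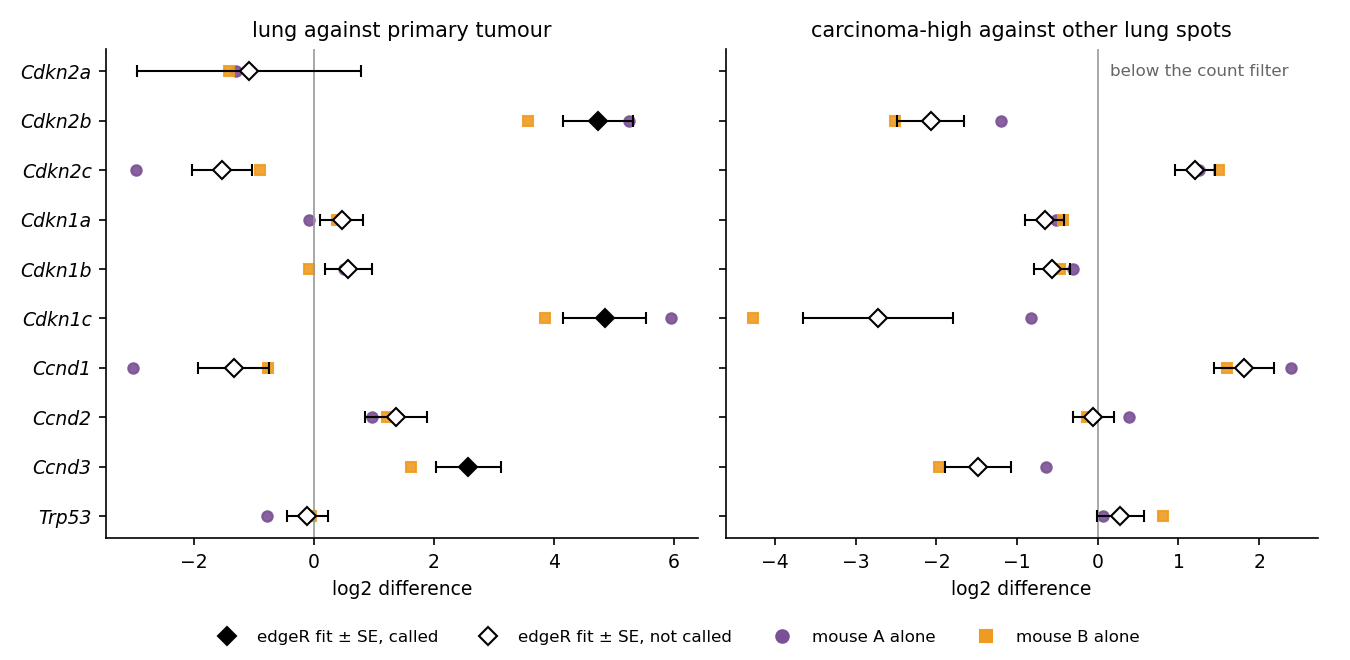
Log2 difference of each gene between lung and primary tumour (left) and between carcinoma-high and other lung spots (right), as the edgeR estimate with its SE and as the ratio within each mouse. Filled diamonds passed an adjusted p of 0.05. Cdkn2b and Cdkn1c lie to the right on the left panel and to the left on the right panel in both mice.

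Within the lung, the question was whether the genes follow the carcinoma tissue there. Lung spots were ordered by the log2 ratio of carcinoma to alveolar markers (100 CPM added to each), and the highest 10% were set against the lower 50%. Ccnd1 and Cdkn2c were higher in the carcinoma-high spots of both lungs. Ccnd1 was at 511.8 CPM against 97.6 CPM in mouse A and at 991.7 CPM against 328.0 CPM in mouse B, and Cdkn2c at 149.6 against 62.5 CPM and at 310.1 against 109.0 CPM. Cdkn2b was lower there, at 20.4 against 47.1 CPM and at 7.34 against 41.9 CPM. Cdkn1c was at 20.4 against 36.4 CPM in mouse A and at 3.24 against 62.8 CPM in mouse B, and Ccnd3 at 147.7 against 229.7 CPM and at 33.9 against 133.1 CPM.

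None of the 9 genes tested passed by edgeR with the mouse as a block, where the share that passed over all 12579 genes was 0%, with 3019 genes at an unadjusted p under 0.05. Ccnd1 had a log2 difference of 1.81 (SE 0.37, adjusted p = 0.153, unadjusted p = 0.00669), Cdkn2c of 1.21 (SE 0.25, adjusted p = 0.153, unadjusted p = 0.0064) and Cdkn2b of -2.07 (SE 0.42, adjusted p = 0.153, unadjusted p = 0.00607). Cdkn1c was at -2.72 (SE 0.93, adjusted p = 0.199) and Ccnd3 at -1.48 (SE 0.41, adjusted p = 0.178). DESeq2 called Cdkn1c, Cdkn2b and Ccnd1, with 8.17% of its genes called. The differences of Cdkn1a (-0.66), Cdkn1b (-0.57), Trp53 (0.28) and Ccnd2 (-0.05) did not pass either. Cdkn2a, with 0 and 8 UMIs in the carcinoma-high spots of mice A and B, was below the count filter.

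These spots differed in more than carcinoma tissue, and the part of the other markers was not tested. The score cut of the highest 10% was -4.344 for mouse A, near the median of -4.937 in the lower 50% of mouse B. For mouse B this cut was 0.752. Smooth muscle markers were at 1422 against 330.1 CPM in the lower 50% of mouse A, and at 381.6 against 337.3 CPM for mouse B. Adipocyte ones were at 105.9 against 21.95 and 64.35 against 49.25 CPM, airway ones at 2285 against 2151 and 131.3 against 1640 CPM. Carcinoma markers reached 562.0 CPM in the highest 10% of mouse A and 2327 CPM in that of mouse B, against 4707 and 5187 CPM in the primary tumours, and alveolar markers were at 6918 and 725.4 CPM in these spots. The lower 50% of mice A and B held carcinoma markers at 0.938 and 371.1 CPM. Neutrophil markers were at 50010 CPM in the highest 10% against 78090 CPM in the lower 50% of mouse A and at 2449 against 57420 CPM in mouse B. In the same order, endothelial markers were at 1400 against 3135 and 336.9 against 2112 CPM, proliferation markers at 1697 against 504.9 and 3988 against 1260 CPM, fibroblast markers at 2021 against 603.6 and 2539 against 1373 CPM, and macrophage markers at 1084 against 467.0 and 1328 against 763.7 CPM. Over 10 equal bins of the spots of mouse B, from the least to the most carcinoma, Ccnd1 went from 223.5 to 991.7 CPM and Cdkn2c from 73.8 to 310.1 CPM, and Ccnd3 from 158.6 to 33.9 CPM, Cdkn2b from 47.7 to 7.34 CPM and Cdkn1c from 81.5 to 3.24 CPM. In mouse A most of the change was in the last 2 bins, where Ccnd1 was at 232.8 and 511.8 CPM after 91.2 to 151.0 CPM in the others. Trp53 went from 34.9 to 89.8 CPM in mouse B and stayed between 30.6 and 55.7 CPM in mouse A.

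**Figure D3:**
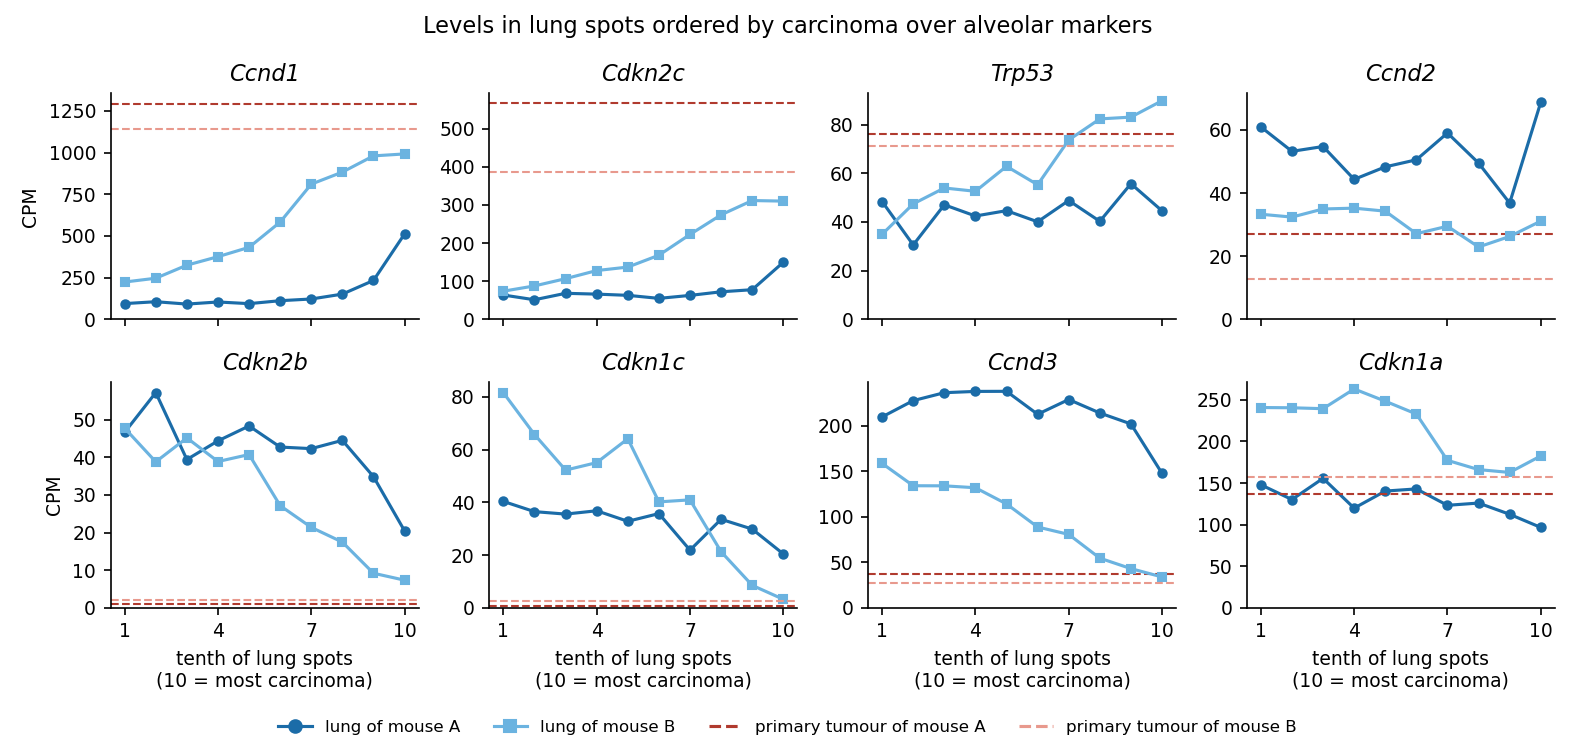
CPM of 8 genes in 10 equal bins of lung spots ordered from least (1) to most (10) carcinoma over alveolar markers, with the level of each primary tumour as a dashed line. In mouse B the curves of Ccnd1 and Cdkn2c run up and those of Cdkn2b, Cdkn1c and Ccnd3 run down towards the tumour levels.

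**Figure D4:**
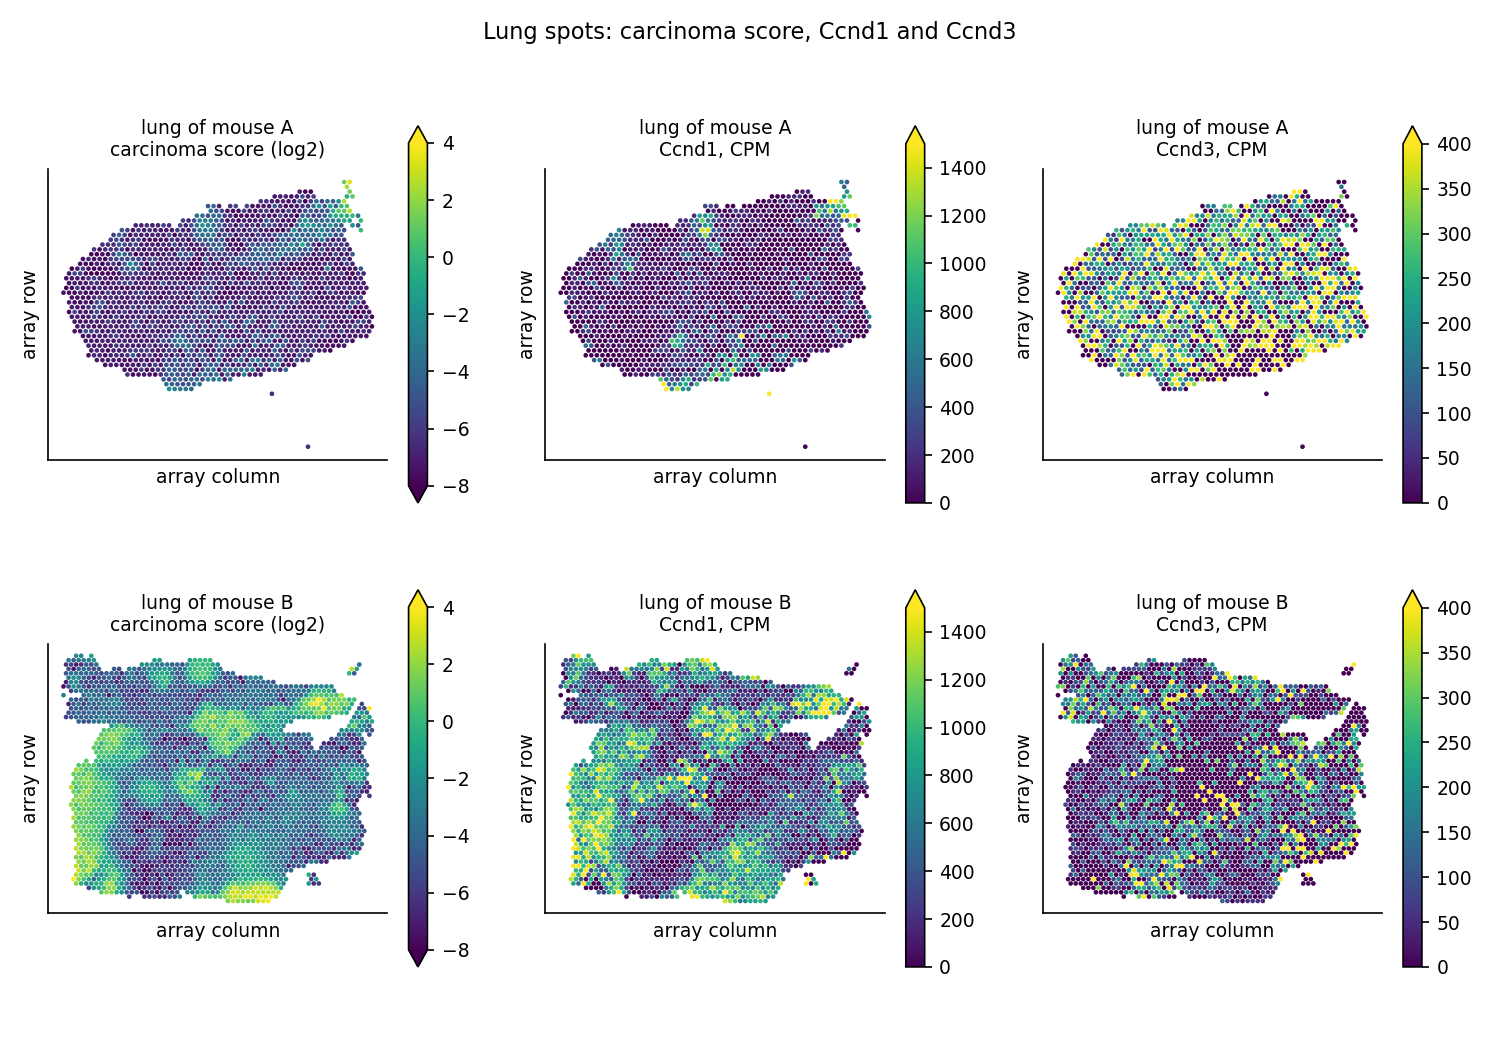
Lung spots of both mice at their array positions, coloured by the carcinoma score (log2), Ccnd1 and Ccnd3 (CPM per spot, with values above the scale in the top colour). In mouse B the patches of high score carry high Ccnd1 and mostly low Ccnd3.

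Carcinoma-high lung spots were next compared with the primary tumours. No member passed, against 0.0142% of 14050 genes, or 2 genes (Gzmf and Gzmg, granzyme genes chosen after their values were seen because the count is small, both lower in the lung spots). At an unadjusted p under 0.05 there were 1045 genes, and DESeq2 called 273. Cdkn2b was at 3.08 (SE 1.06, adjusted p = 0.637) and Cdkn1c at 2.96 (SE 1.44, adjusted p = 0.730) on the log2 scale, beside the alveolar markers at 6918 and 725.4 CPM in these spots, whose part was not tested. Ccnd1 was at -0.71 (SE 0.47, adjusted p = 0.816) and Cdkn2c at -1.07 (SE 0.49, adjusted p = 0.710), errors too wide to call these levels equal.

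Within the primary tumour, the 25% of spots with the highest proliferation or hypoxia marker sums were set against the lowest 25%, among spots with at least 1000 UMIs. None of the 7 members tested passed in either comparison, against 0.758% of 17028 genes for proliferation and 0.28% of 15691 genes for hypoxia. Cdkn1a was at 185.7 CPM in hypoxia-high and 103.1 CPM in hypoxia-low spots of mouse A, and at 154.7 and 140.7 CPM in those of mouse B (log2 difference 0.64, SE 0.34, adjusted p = 0.991). In proliferation-high spots it was at 118.1 against 140.5 CPM and at 133.1 against 203.1 CPM (-0.33, SE 0.39, adjusted p = 0.790). Ccnd2 was at 24.03 against 32.7 CPM and at 9.45 against 20.5 CPM in hypoxia-high and hypoxia-low spots (-0.58, SE 0.30, adjusted p = 0.991). Ccnd1 was at 1373 against 1272 CPM and at 1284 against 1046 CPM between proliferation-high and proliferation-low spots (0.30, SE 0.60, adjusted p = 0.888). Cdkn2a, Cdkn2b and Cdkn1c were below the count filter in both comparisons. In mouse B the receptor mean was 6.35 CPM in proliferation-high and 14.5 CPM in proliferation-low spots, and 4.56 and 18.3 CPM in hypoxia-high and hypoxia-low spots. Neutrophil markers were at 3675 against 1719 CPM in mouse A and at 9036 against 10970 CPM in mouse B between hypoxia-high and hypoxia-low spots, and at 2014 against 3146 and 7134 against 20290 CPM between proliferation-high and proliferation-low spots. The part of both in these values was not tested.

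Where in a section each gene was high was described from the 5% of spots with the highest marker sum in CPM, against the other spots of the section (log2 ratio with 5 CPM added, no test). Cdkn1a was high in neutrophil-high tumour spots, at 444.4 CPM against 134.1 CPM in mouse A (log2 ratio 1.69) and at 344.6 CPM in mouse B (log2 ratio 1.17). Cdkn1b was at 161.6 against 90.2 CPM and at 141.0 against 89.3 CPM in the same spots, and Cdkn2c at 339.4 against 568.8 CPM and at 216.7 against 393.5 CPM. Ccnd3 was at 56.6 against 36.8 CPM, on 7 UMIs, and at 49.6 against 26.7 CPM there. These spots were shallow in mouse A, with a median of 748 UMIs against 3405, and held 55 UMIs of Cdkn1a, whereas in mouse B their median was 2296 against 1787 UMIs. The part of depth was not tested. In neutrophil-high lung spots Cdkn1a had no common direction, at 81.0 against 132.2 CPM in mouse A and 242.2 against 204.2 CPM in mouse B.

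In the lung the D cyclins took different places. Ccnd1 was at 49.0 CPM in neutrophil-high spots against 166.3 CPM elsewhere in mouse A, and at 139.5 against 691.8 CPM in mouse B. It was high in proliferation-high lung spots, at 790.5 against 120.3 CPM and at 985.8 against 649.9 CPM, and Cdkn2c went with it, at 201.8 against 64.4 CPM and at 295.6 against 202.2 CPM. Ccnd3 was high in neutrophil-high lung spots as in those of the tumours, at 268.4 against 212.7 CPM and at 167.7 against 81.8 CPM, and low in proliferation-high ones, at 130.5 against 221.0 CPM and at 37.0 against 88.3 CPM. Ccnd2 was high in airway-high lung spots, at 71.7 against 51.7 CPM and at 54.1 against 29.1 CPM, and likewise in fibroblast-high ones, at 80.4 against 51.4 CPM and at 46.3 against 29.4 CPM. In smooth muscle-high spots its log2 ratios were 0.20 and 0.85. Cdkn1c was at 46.2 against 31.3 CPM and at 55.1 against 35.3 CPM in airway-high spots, and its log2 ratio was 0.16 and 1.17 in alveolar type 1-high ones. Cdkn2b was high in endothelial-high lung spots, at 62.3 against 41.3 CPM and at 37.9 against 24.7 CPM, and likewise in alveolar type 2-high ones, at 57.2 against 41.2 CPM and at 44.5 against 24.1 CPM, and type 1-high ones, at 54.2 against 41.5 CPM and at 44.7 against 24.4 CPM. It was low in proliferation-high spots, at 13.7 against 43.9 CPM and at 6.897 against 26.4 CPM.

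**Figure D5:**
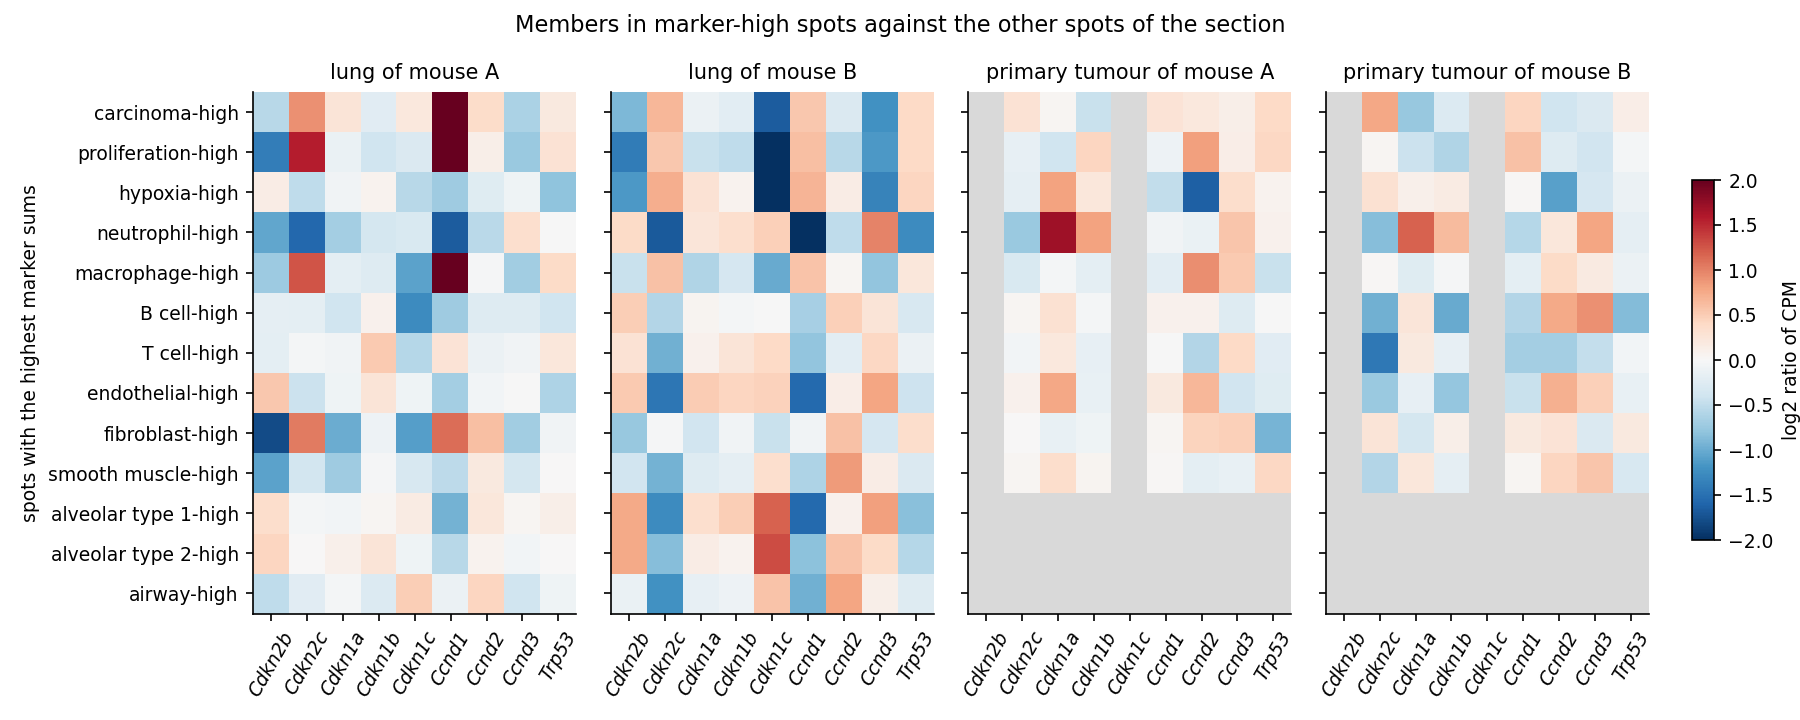
Log2 ratio of CPM between the spots highest in each marker list (rows) and the other spots of the section, for 9 genes (columns) in the 4 sections, with 5 CPM added to both. Grey fields were left out because the gene or the lung cell type is near 0 in the tumour. Ccnd1 and Cdkn2c are blue and Ccnd3 red in neutrophil-high spots of both lungs, and Cdkn1a is red in neutrophil-high spots of both tumours.

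Across blocks of neighbouring spots (48 and 34 in tumour and lung of mouse A, 46 and 52 in those of mouse B), Ccnd1 and Cdkn2c had a Pearson correlation of 0.25, 0.27, 0.67 and 0.93 in that order. Blocks of a section share a library and differ in depth, so this is a description. Ccnd1 and Ccnd3 had -0.15, -0.43, 0.05 and -0.78, and Cdkn2b and Ccnd1 -0.06, -0.02, -0.17 and -0.69. By the mean correlation over the 4 sections among 6317 genes, Ccnd1 was most like Ctsl (0.72), Pabpc1 (0.71) and Tm4sf1 (0.70), Cdkn2c most like Tomm70a (0.68), Pabpc1 (0.66) and Lamc1 (0.66), and Cdkn1a most like Hilpda (0.61), Emilin2 (0.58) and Nos2 (0.55). Ccnd3 was most like Hcls1 (0.59), Smpdl3a (0.57) and Il1f9 (0.56), and Trp53 like Txnl4a (0.52), Taf15 (0.51) and Snx5 (0.51). The values were lower for Cdkn1b (Kdm6b, 0.49) and Ccnd2 (Gdap2, 0.41). No partner is given for Cdkn2b, Cdkn1c and Cdkn2a, whose 7 to 28 UMIs per tumour are spread over 46 to 48 blocks.

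The partners of these genes were described from lists of 30 p53 target genes and 30 genes of the RB and E2F pathway. Of 29 p53 targets tested between lung and primary tumour, 4 were higher in the lung and 0 lower, beside 7.46% of all genes called in either direction, and the median of the list was 0.40 on the log2 scale, where that of all genes tested was -0.0046. The 4 were Trp53inp1 (3.31, SE 0.44, adjusted p = 0.00523), a stress protein of autophagy, the antiproliferative genes Btg2 (2.26, SE 0.53, adjusted p = 0.0351) and Tob1 (1.74, SE 0.42, adjusted p = 0.0373), and the phosphatase gene Ptp4a3 (1.96, SE 0.44, adjusted p = 0.0293). Mdm2, the ubiquitin ligase for p53, was at 251.9 and 275.2 CPM in the lungs and at 235.5 and 199.1 CPM in the tumours, and did not pass. Of 28 RB and E2F pathway genes, 3 were higher and 0 lower beside the same 7.46%, with a median of 0.077. Both counts differed between the alternatives. With upper-quartile scaling 1 gene of each list passed, beside 185 of 15267 genes. Without the lung of mouse B, 8 p53 targets (7 higher, 1 lower) and 9 RB and E2F genes (6 higher, 3 lower) passed, beside 2519 of 19134 genes, and without the primary tumour of mouse B 2 of each list, beside 1251 of 15544. The 3 RB and E2F genes were Tbx2 (6.09, SE 0.60, adjusted p = 0.00225), a repressor known to act on Cdkn2a and also a gene of lung mesenchyme, E2f2 (3.46, SE 0.73, adjusted p = 0.0234) and the INK4 gene Cdkn2d (1.74, SE 0.42, adjusted p = 0.0373), which was at 142.2 and 86.0 CPM in the lungs and at 43.0 and 43.5 CPM in the tumours. Tbx2 was at 195.5 and 140.6 CPM in the lungs and E2f2 at 23.7 and 10.9 CPM, while in the tumours of mice A and B they were at 1.63 and 4.68 CPM and at 2.29 and 1.65 CPM, in mouse B below the receptor mean.

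Of the kinases that D cyclins bind, Cdk6 was at 55.5 and 145.3 CPM in the lungs and at 171.7 and 191.9 CPM in the tumours. Cdk4 had a log2 fold change of -0.53, and neither passed. Rb1, which encodes the retinoblastoma protein, was at 81.2 and 50.4 CPM in the lungs and at 37.8 and 32.4 CPM in the tumours, and did not pass. In carcinoma-high against other lung spots 0 of 26 p53 targets and 0 of 28 RB and E2F genes passed by edgeR. Their medians were -0.14 and 0.67 against 0.0089 over all genes. DESeq2 called 2 (1 higher, 1 lower) and 6 (5 higher, 1 lower) of these lists, beside 874 of 10699 genes. Without a filter 8 (2 higher, 6 lower) and 9 (6 higher, 3 lower) passed, beside 2401 of 18657. For carcinoma-high lung spots against primary tumour none of 29 and none of 28 passed by edgeR without the block. The medians were 0.24 and 0.12. DESeq2 and edgeR with the replicate block each called 0 and 1, beside 273 of 13302 and 261 of 14050 genes. Without a filter 1 of each list passed, beside 474 of 19284. In proliferation-high tumour spots the E2F targets Ccna2 (log2 difference 1.52, SE 0.41, adjusted p = 0.0331) and E2f1 (1.16, SE 0.32, adjusted p = 0.042), Skp2, which targets p27 for degradation (1.33, SE 0.33, adjusted p = 0.0144), and the spindle gene Ckap2 of the p53 list (1.12, SE 0.30, adjusted p = 0.0295) were higher. The spots were ranked by 27 measured proliferation markers, so a rise of such cell cycle genes is not independent of the ranking. The genes named are 3 of 27 RB and E2F genes and 1 of 28 p53 targets tested, beside 0.758% of all genes. DESeq2 called 1 and 0 of these lists, beside 51 of 8033 genes, and 0 and 0 passed with no replicate block, beside 4 of 17028 genes. In hypoxia-high tumour spots Ccne2, a partner of CDK2, was lower (-1.15, SE 0.29, adjusted p = 0.0272), 1 of 27 genes beside 0.28% of all genes, and 0 of 26 p53 targets passed. The call of Ccne2 was lost by DESeq2 (22 of 4683 genes called), without a filter (1 of 19203) and with no replicate block (0 of 15691, with 147 at an unadjusted p under 0.05). Ccne2 was at 19.6 against 24.5 CPM in mouse A and at 44.3 against 178.1 CPM in mouse B, where the hypoxia-low spots also had the higher receptor mean.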

How the data were processed

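The authors deposited UMI counts per gene and spot, as written by Space Ranger 2.0.0 on mm10 with the mouse probe set, and spot positions, with no normalized values. Spots with more than 200 genes were kept. CPM scales UMIs to a total of 1000000 per section or class. Counts were summed per mouse and class, and edgeR 4.0.16 under R 4.3.3 tested them (TMM scaling, filterByExpr, quasi-likelihood test, Benjamini-Hochberg adjustment over all genes, threshold 0.05), with DESeq2 1.42.0 as an alternative. Lung against primary tumour, and carcinoma-high lung spots against primary tumour, were fitted without a replicate block, and classes within 1 section with the mouse as a block. Same-numbered sections come from 1 animal, which pairs them. Deviations of same-animal sums about the class mean correlated at -0.31 between tissues, -0.39 between carcinoma-high lung spots and primary tumour, and 0.57 to 0.90 between classes of a section. With the block between tissues the spread was wholly pooled over genes. With 2 mice no permutation of labels gives a two-sided p under 0.333.

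The 10 genes, the marker and pathway lists and the classes were chosen with earlier results of these data known. All members are named, and of the pathway lists up to 3 genes with the largest rise and fall among those that passed in each comparison, apart from Mdm2, Cdk4, Cdk6 and Rb1, and the fourth p53 target, named after their values were seen, as background or to complete a count. In likeness, blocks of 8 by 16 array positions with at least 10 spots and genes of at least 20 CPM were used, with 10 CPM added before the log2. The tests were first tested on simulated data with 200 changed genes and a spread that was set, not estimated. Without the block, lung against primary tumour recovered 0 of 100 genes with an absolute log2 change of 1 and 90 of 100 with 2. For carcinoma-high lung spots against primary tumour these were 1 and 88. Classes within a section, with the block, gave 68 to 70 and 100. A gene that did not pass without the block may therefore still differ by a log2 change of 1. Python 3.11.15 was used for the rest. The alternatives were other scalings and filters, DESeq2, other classes and leaving out each mouse. Leaving out each section, for lung against primary tumour, was added after the data were seen.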

Additional observations from a re-analysis of the deposited data

Results flagged for a closer look

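Cdkn1a lay in opposite directions in the 2 tissues in adipocyte-high spots, the 5% of spots highest in 6 adipocyte markers. In the lungs it was lower there than in other spots, at 70.6 against 132.5 CPM in mouse A and at 154.6 against 207.1 CPM in mouse B. In the primary tumours it was higher, at 198.5 against 134.5 CPM in mouse A and at 196.0 against 156.3 CPM in mouse B. The mean log2 ratio in lung less that in primary tumour was -1.07. In each primary tumour 1 of 6 adipocyte markers lay above the 95th percentile of receptor genes, and the value of mouse B rests on 30 UMIs of Cdkn1a. The signs were also opposite in cardiac-high spots (log2 ratios of -0.47 to -0.33 in the lungs and 0.21 to 0.33 in the tumours), smooth muscle-high spots (-0.71 to -0.26 and 0.22 to 0.35) and airway-high spots (-0.17 to -0.04 and 0.15 to 0.16). In the tumours of mice A and B 1 and 1 of 5 cardiac, 5 and 1 of 6 smooth muscle and 1 and 0 of 5 airway markers lay above that percentile. Alveolar type 2-high spots had opposite signs the other way round, at 0.10 to 0.15 in the lungs and -0.32 to -0.11 in the tumours. There 1 and 0 of 6 of these markers lay above that percentile in the tumours of mice A and B. In both tumours Cdkn1a was lowest in the 25% of spots with the most UMIs, at 114.5 against 170.9 to 220.7 CPM in the other depth classes of mouse A and at 124.3 against 181.8 to 277.6 CPM in those of mouse B. The difference was not tested, nor was the part of depth.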

How the results depend on the processing

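Between lung and primary tumour 1139 of 15267 genes passed, 84.6% of them higher in the lung, and 3 of the 10 members. The counts were 3827 of 18565 genes (44.6% higher) and 4 members by DESeq2, and 2022 of 19314 and 4 members without a filter. They were 185 of 15267 and 1 member with upper-quartile scaling, which shifted the median log2 fold change of all genes to -0.28. With the replicate block they were 1817 of 15267 and 5 members, and with spots of at least 1000 UMIs 681 of 14684 and 3 members. Leaving out 1 section gave 883 to 6604 genes and 3 to 5 members, the most genes without the primary tumour of mouse A (1387 higher, 5217 lower) and 2519 without the lung of mouse B, where Cdkn2c and Ccnd2 also passed. Of the 7 fits with all sections, Cdkn2b passed in 7, Cdkn1c and Ccnd3 in 6, missing with upper-quartile scaling (adjusted p = 0.0544 and 0.0856 by edgeR), and Cdkn2c and Ccnd2 in 2 each. With 1 section left out the spread comes from the 2 sections of the other tissue, and the lone section is assumed to vary like them. The cause was not tested.

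For carcinoma-high against other lung spots, 874 of 10699 genes and 3 of 10 members passed by DESeq2. Without a filter 2401 of 18657 genes and 5 of 10 members passed, against 0 of 12579 genes in the main fit and 0 with no replicate block. For carcinoma-high lung spots against primary tumour, 273 genes passed by DESeq2, 474 without a filter, 0 with upper-quartile scaling, 261 with the replicate block and 5 with the top 5%. For proliferation the counts were 51, 254, 391, 4 (no replicate block) and 350 (10% classes), and for hypoxia 22, 1, 212, 0 and 155, in the order DESeq2, no filter, upper quartile, no block, 10% classes. No member passed in these 3 comparisons under any of these settings.

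The following differences, none of which passed, changed sign. Lung against primary tumour, leaving out a section or mouse gave -0.081 to 0.82 for Cdkn1a (lowest in mouse A alone), -0.087 to 1.14 for Cdkn1b (lowest in mouse B alone) and -0.78 to 0.24 for Trp53, which was 0.050 without a filter, 0.24 without the primary tumour of mouse A and 0.22 without the lung of mouse A. Within the lung, Ccnd2 was 0.0079 with no replicate block and 0.39 and -0.13 in mice A and B alone. Against the primary tumour, Cdkn1a in carcinoma-high spots was 0.018 without a filter and -0.50 and 0.22 in mice A and B alone, Cdkn1b -0.035 with upper-quartile scaling, -0.012 with the block, -0.11 in the top 5% and 0.28 and -0.28 in mice A and B alone, and Trp53 -0.77 and 0.33 in mice A and B alone. By proliferation, Cdkn2c was -0.14 and 0.33, Ccnd2 0.63 and -0.13 and Ccnd3 0.67 and -0.32 in mice A and B alone, and Ccnd2 -0.052 with 10% classes. By hypoxia, Ccnd1 was -0.020 with upper-quartile scaling and -0.19 and 0.057 in mice A and B alone. Less the receptor mean, Cdkn1c was -0.23 and -5.50 CPM in the primary tumours of mice A and B, and Cdkn2a -5.41 and Cdkn2b -5.87 CPM in that of mouse B.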
